A study of Mus musculus with 32 samples.

Results

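Bulk RNA-seq of mouse embryonic stem (mES) cells 96 h after the start of GATA6 induction was compared with the same cells at 48 h. All samples labelled 48 h or 96 h were taken, 4 of each, which makes 8 of the 32 samples of the time course, and 15227 of the 54233 rows of the expression table passed the filter on low values and were tested. The cells are KH2 mES cells labelled as strain C57BL/6. They carry a single copy of a transgene, TRE:GATA6-DSREd2, in which a TET-responsive element that is switched on by doxycycline (Dox) drives GATA6 and a red fluorescent protein. Both groups went through the same induction. Cells grown in 2i medium with LIF were moved to serum medium with LIF and Dox at 1 µg/ml for 12 h and then kept in serum medium with LIF and without Dox, so the samples differ in how long the cells stayed in culture after Dox was removed. The cells were not sorted, and a lower transcript level in such bulk samples cannot be told apart from fewer cells that hold the transcript. The labels do not say that the 4 replicates were separate cultures, so p-values measure the spread between samples only. The fit pools this spread over the replicates of all 32 samples, not only those at 48 h and 96 h.

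Primitive endoderm (PrE) is the extraembryonic layer that faces the blastocyst cavity, and GATA6 is the transcription factor that specifies it, whereas NANOG marks the alternative epiblast (Epi). After implantation PrE gives rise to parietal endoderm, which migrates along the trophoblast and lays down a thick basement membrane of laminin and collagen IV, and to visceral endoderm, which surrounds the embryo, takes up and secretes nutrients and lipoproteins, and patterns the epiblast. Parietal endoderm is known for thrombomodulin, plasminogen activators and keratins, and visceral endoderm for apolipoproteins and endocytic receptors. The comparison of 96 h with 48 h asks which of these genes still moved once the early PrE genes were on.

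At 48 h 4220117 to 9604532 reads of each sample lay on genes, and at 96 h 7292000 to 9659981. Expression is given as the normalized count, the reads of a gene divided by the size factor of the sample. In both groups replicates 1 and 2 stood apart from replicates 3 and 4. Between pairs of replicates of the same group, the chi-square statistic per degree of freedom of the read counts was 1.29 to 1.81 within these sets and 6.24 to 17.6 between them. The labels name no batch, and what separates the sets was not tested. Both sets hold 48 h and 96 h samples, so values within each set are given beside the pooled ones. The row of *Gata6*, which may also hold reads of the transgene, had 1049, 1044, 1323 and 1425 at 48 h and 1887, 1995, 2169 and 2219 at 96 h (here and below in the order of replicates 1 to 4), and its log2 fold change was 0.78 (SE 0.15, limma, adjusted p = 9.7e-05). The row of the transgene itself held 81.6 ± 15.2 (SD, n = 4) at 48 h and 115 ± 49.8 at 96 h, far less than the 618 ± 110.4 at 2 h with Dox. The label calls all samples embryonic stem cells, but *Nanog* was at 5875 ± 1219 at 0 h and at 220.0 ± 77.9 and 60.1 ± 19.9 at 48 h and 96 h.

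A gene was called by the 4-fold rule when its adjusted p (limma, Benjamini-Hochberg) was under 0.1 and its log2 fold change was at least 2 in either direction. By this rule 198 genes were higher at 96 h (1.30% of those tested) and 365 were lower (2.40%). By a second, 2-fold rule (log2 fold change of at least 1) 832 genes were higher (5.46%) and 1504 lower (9.88%). At the same adjusted p with no limit on size, 4155 genes were higher and 4143 lower, and the median log2 fold change of all genes was 0. For the step before, from 24 h to 48 h, the same fit gave 382 higher (2.51%) and 214 lower (1.41%) by the 4-fold rule. The 2 steps share the samples at 48 h, and the difference between their counts was not tested. Within replicates 1 and 2 alone 270 genes were higher and 449 lower, and within replicates 3 and 4 alone 184 were higher and 433 lower. All 198 rises and all 365 falls had the same direction in both sets, and 143 rises and 236 falls were at least 4-fold in each of them. The genes were called on the mean over these same sets, so the shared direction was largely fixed by the rule and is not a replication. The split of rises and falls moved with the treatment of low counts. It was 145 to 161 on the deposited values, 139 to 143 with a pseudocount of 5 in place of 1, and 110 to 89 among genes with a mean of at least 50.

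**Figure D1:**
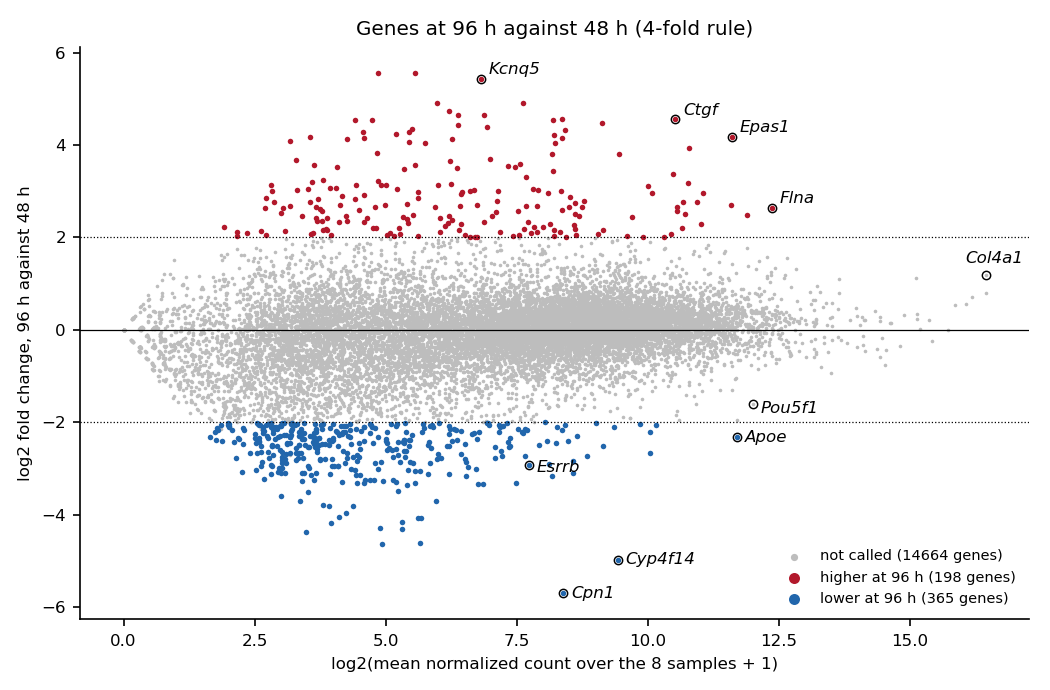
Each point is 1 of the 15227 genes tested. The x axis shows log2 of the mean normalized count over the 8 samples plus 1, the y axis shows the log2 fold change of 96 h against 48 h, and colours mark the 198 higher and 365 lower genes of the 4-fold rule. Falls crowd at the left, among genes with few reads, whereas *Flna*, *Epas1* and *Apoe* lie among abundant transcripts.

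Many of the called genes had few reads. Of the 365 genes that fell, 229 had a mean normalized count under 50 at 48 h, as did 4985 of all 15227, and 106 had at most 3 reads in every sample at 96 h, so their fold change is a matter of few reads. Of the 198 genes that rose, 62 had a mean under 50 at 96 h and 24 had at most 3 reads in every sample at 48 h. Over the 8 time points, 164 of the rising genes had their highest mean at 96 h, and 22 had it between 0 h and 4 h. Of the falling genes, 98 had their highest mean at 48 h, 127 at 8 h to 24 h and 140 at 0 h to 4 h, and 291 were at their lowest mean of the series at 96 h. Protein-coding genes made up 188 of the rises, 329 of the falls and 13035 of the 15227 genes tested. Groups did not overlap for 195 of the rises and 355 of the falls. Over all genes tested, every 96 h sample lay above every 48 h sample for 24.5% and below for 22.1%.

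The 12 largest rises were taken among called genes with a mean of 100 or more at 96 h and no overlap of samples. *Thbd* (chr2:148404466-148408188) encodes thrombomodulin, the thrombin receptor of endothelium and parietal endoderm. It had 16.0, 15.1, 41.3 and 42.3 at 48 h and 584, 562, 712 and 669 at 96 h, so every 96 h sample lay more than 10 times above every 48 h sample, for a log2 fold change of 4.56 (SE 0.44, adjusted p = 1.2e-09). *Ctgf* (chr10:24595442-24598683), a secreted matrix protein and a standard target of YAP, had 97.1, 98.0, 139.9 and 127 at 48 h and 1980.0, 2077, 3776 and 3449 at 96 h. The log2 fold change was 4.56 (SE 0.23, adjusted p = 1.9e-15), with 4.36 in replicates 1 and 2 and 4.75 in replicates 3 and 4. *Flt1*, a VEGF receptor, had 31.1, 24.5, 68.6 and 82.6 at 48 h and 869, 824, 1336 and 1215 at 96 h (log2 fold change 4.48). *Nog* (chr11:89300638-89302332), which encodes the secreted BMP antagonist noggin, had 10.4, 9.42, 9.68 and 4.13 at 48 h and 202, 230.3, 228 and 236 at 96 h (log2 fold change 4.65, SE 0.45, adjusted p = 1.1e-09). The samples at 96 h were close to each other for *Nog*, and replicate 4 at 48 h was lowest. *Kcnq5*, a potassium channel, rose most of all by this rule, with 2.83, 1.88, 6.16 and 7.22 at 48 h and 192, 229, 226 and 226 at 96 h (log2 fold change 5.44, SE 0.41, adjusted p = 6.7e-12), and its 48 h values rest on 7 reads or fewer per sample. *Myl9*, a myosin light chain, and *Tubb3*, a tubulin best known from neurons, rose with log2 fold changes of 4.64 and 4.39. The other 5 of the 12 were, with their log2 fold changes, *Spock1* (4.91) and *Spon2* (4.74), both matrix proteins, the prostaglandin receptor *Ptger3* (4.90) and prostaglandin transporter *Slco2a1* (4.55), and the guidance receptor *Robo2* (4.44). The log2 fold change of *Spock1* differed most of the 12 between the replicate sets, at 6.36 in replicates 1 and 2 and 3.46 in replicates 3 and 4.

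The 12 largest falls were chosen by the same limits at 48 h, and the first 2 were genes switched on earlier in the time course. *Cpn1* (chr19:43956307-43986556) encodes the catalytic subunit of carboxypeptidase N, a plasma enzyme. It went from 17.4 ± 3.15 at 0 h to 2530.4 ± 154 at 24 h, and then had 696, 684, 627 and 619 at 48 h and 12.7, 15.8, 6.28 and 14.2 at 96 h, for a log2 fold change of -5.70 (SE 0.26, adjusted p = 2.5e-16). *Cyp4f14* (chr17:32905070-32917342), a fatty acid hydroxylase, had 1449, 1257, 1320.4 and 1276 at 48 h and 69.0, 72.6, 18.8 and 29.3 at 96 h (log2 fold change -4.98, SE 0.42, adjusted p = 6.3e-11), and at 96 h replicates 1 and 2 were above replicates 3 and 4. *Foxh1*, the SMAD partner of Nodal signalling, fell evenly in both sets, from 518 ± 39.1 at 48 h to 56.9 ± 3.59 at 96 h (log2 fold change -3.16, SE 0.13). *Deptor*, an inhibitor of mTOR, fell by 3.31 on the log2 scale, *Apoc1*, an apolipoprotein, by 3.10, and *Esrrb*, an orphan nuclear receptor of naive pluripotency, by 2.93. *Phf19*, which recruits Polycomb complex PRC2, fell by 3.16, and the aldolase *Aldoc* by 3.34. The remaining 4, with their log2 fold changes, were *Calcoco2* (-3.33), *Slc5a11* (-3.12), *Arl14epl* (-3.02) and *Gpa33* (-2.97).

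Genes past the 2-fold rule were also ranked by difference in mean normalized count, and rises held all 10 first places. Genes that did not pass this rule, such as *Sparc* (log2 fold change 0.80), were not ranked. *Col4a1* (chr8:11198423-11312826), a chain of collagen IV, had 36331, 41188, 73013 and 75092 at 48 h and 112699, 105005, 141843 and 131869 at 96 h (log2 fold change 1.19, SE 0.19, adjusted p = 4.9e-06). At 48 h replicates 3 and 4 held more of it than replicates 1 and 2, and all 96 h samples were above all 48 h samples. *Col4a2*, which lies head to head with *Col4a1*, had 13387, 15229, 32328 and 32686 at 48 h and 42105, 38554, 56684 and 53221 at 96 h (log2 fold change 1.13). *Plod2*, which hydroxylates collagen lysines, had 7979, 7769, 8296 and 8851 at 48 h and 15943, 16079, 19051 and 19309 at 96 h (log2 fold change 1.09, SE 0.10). The others were *Flna* (filamin A, log2 fold change 2.65), *Tfpi* (tissue factor pathway inhibitor, 1.56), *Tpm4* (a tropomyosin, 1.33), *Tagln2* (transgelin 2, 1.57), *Adamts9* (a matrix protease, 2.49), *Atp13a3* (a P-type ATPase, 1.19) and *Epas1*. *Epas1* (chr17:86753700-86833410) encodes the hypoxia-inducible factor HIF2α and had 191, 190.3, 509 and 561 at 48 h and 5282, 5009.6, 6734 and 6407 at 96 h, for a log2 fold change of 4.18 (SE 0.22, adjusted p = 5.4e-15). It had been lowered from 488 ± 45.9 at 0 h to 45.7 ± 10.2 at 24 h before this rise.

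**Figure D2:**
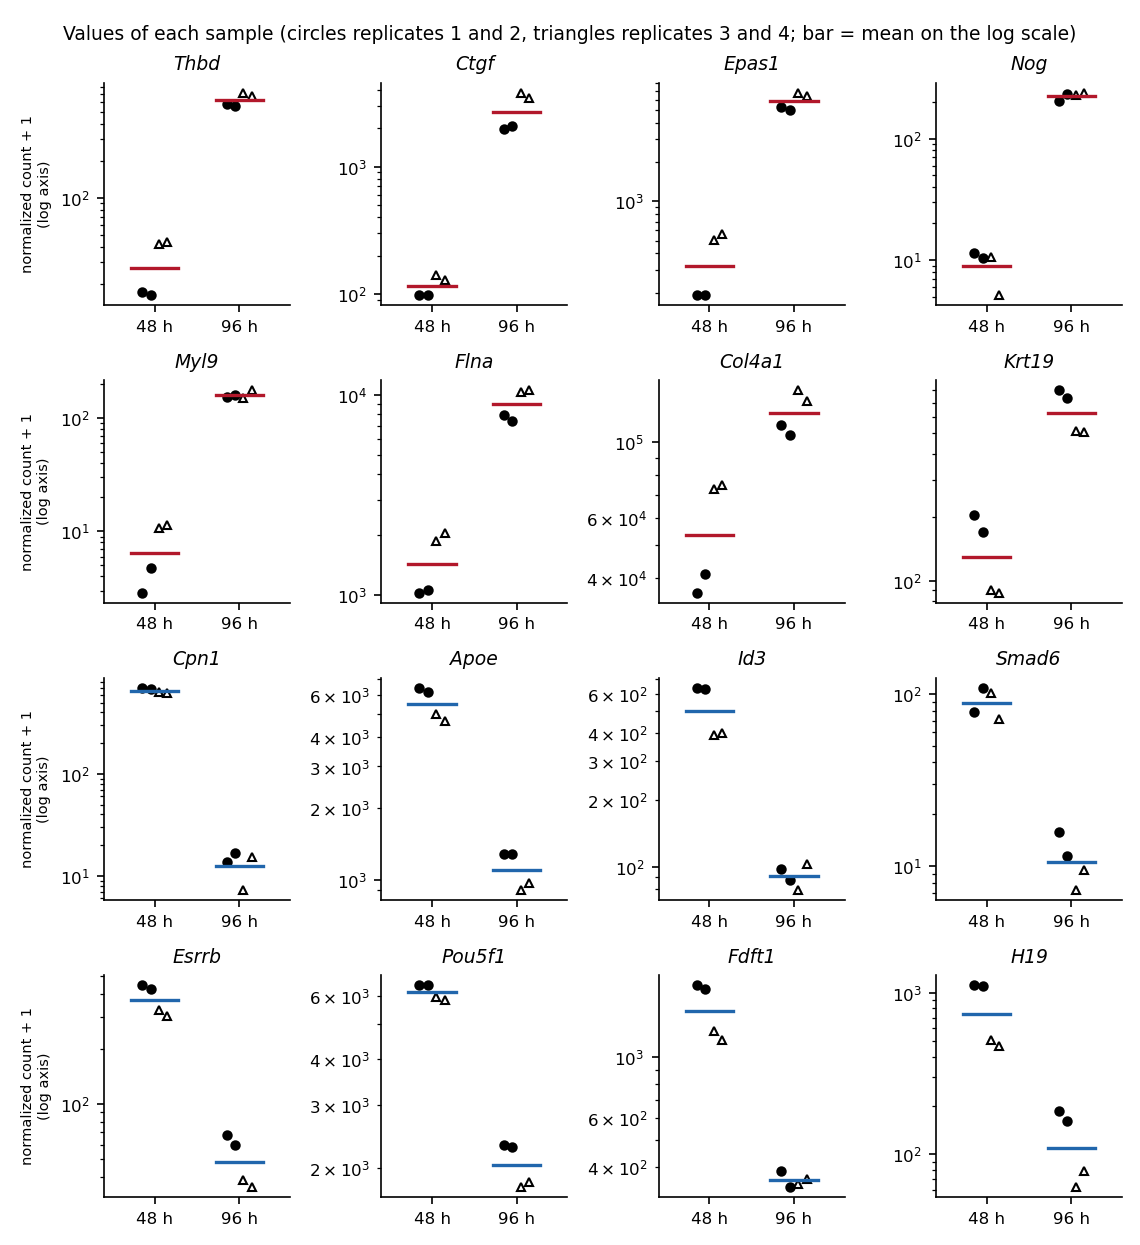
Normalized count plus 1 of each sample on log axes, for 16 genes at 48 h and 96 h. Circles are replicates 1 and 2, triangles are replicates 3 and 4, and the bar is the mean on the log scale, red where the gene was higher at 96 h and blue where it was lower. The 2 groups do not overlap in any of the 16 panels, but some of these genes were named by a rule that required this. Over all genes tested, every 96 h sample lay above every 48 h sample for 24.5% and below for 22.1%.

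Genes were then described by lists of known function, each with its counts by the 2-fold rule. Some genes stand in more than 1 list, and the lists were chosen with earlier results of these data known. From here on a lone signed or unsigned number in brackets after a gene is its log2 fold change. The count of each list stands against 5.46% higher and 9.88% lower among all genes. Of the 25 parietal endoderm genes tested, 15 were higher at 96 h, against 5.46% of all genes, and the median log2 fold change was 1.13. No member was lower by the 2-fold rule with limma or limma-voom. With no limit on size, 2 were lower at an adjusted p under 0.1 (limma). The 4 members with a negative log2 fold change were *Fn1* (-0.67), *Pdgfra* (-0.46), *Itga6* (-0.41) and *Vim* (-0.31). These 4 are not among the named genes whose dependence on processing is given below. *Thbd* rose most. *Gkn2*, a secreted gastrokine, had 0 reads in all 48 h samples and 14.9, 15.8, 15.1 and 18.9 at 96 h, at least 4.54-fold above the mean normalized count that 3 reads per sample would give at 48 h. *Stra6*, a receptor for retinol-binding protein, had 21.7, 22.6, 102 and 90.8 at 48 h and 427, 392, 646 and 627 at 96 h (log2 fold change 3.43, SE 0.42, adjusted p = 9.6e-08). *Fxyd3*, a regulator of the sodium pump, rose by a log2 fold change of 3.03. *Sparc*, an abundant matrix glycoprotein and the first gene of the list, had a log2 fold change of 0.80 (adjusted p = 0.0038), under the 2-fold limit.

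Of the 31 basement membrane and assembly genes tested, 8 were higher (25.8%, against 5.46% of all genes) and 3 lower (9.68%, against 9.88%), with a median log2 fold change of 0.53. With limma-voom 9 were higher and 2 lower, and *Lama3* lost its call. *Tinagl1*, a matricellular protein of basement membranes, had 291, 301, 407 and 392 at 48 h and 2953, 2976, 3249 and 3356 at 96 h (log2 fold change 3.18, SE 0.44, adjusted p = 5.6e-07). Among laminin chains, *Lama5* fell from 766 ± 102 to 239 ± 26.6 (-1.67) and *Lama3*, with an overlap of samples, from 16.1 ± 4.53 to 7.33 ± 4.06 (-1.16), and *Lama1*, the main laminin α chain of this membrane, had a log2 fold change of 0.55 (adjusted p = 0.043). That of *Lama1* missed the threshold when replicate 1 or 2 at 48 h or replicate 3 or 4 at 96 h was left out. The third member that fell was *Col18a1* (-1.29), the source of endostatin. Of 17 genes of other collagens and matrix remodelling, 5 were higher and 5 lower (median -0.05). The 5 higher were *Ctgf*, the lysyl oxidase *Loxl2* (255, 226, 244 and 267 at 48 h and 2219, 2214, 3115 and 2893 at 96 h, log2 fold change 3.38), the thrombospondin *Thbs1* (2.66) and the metalloprotease inhibitors *Timp2* (3.12) and *Timp3* (1.19). The 5 lower were *Tgfbi* (65.0, 60.3, 91.5 and 78.4 at 48 h and 5.31, 4.21, 1.26 and 2.84 at 96 h, log2 fold change -4.17), *Loxl3* (-2.36), the metalloproteases *Mmp9* (-2.60) and *Mmp2* (-1.81), and osteopontin, *Spp1* (-1.31). *Mmp2* had only 4.13 to 13.2 at 48 h, with replicate 1 highest, so its fall is a matter of few reads. Of 22 epithelial and mesenchymal genes, 5 were higher and 2 lower (median -0.04). The keratins *Krt19* (204, 169.6, 88.8 and 86.7 at 48 h and 799, 736, 511 and 505 at 96 h, log2 fold change 2.28), *Krt18* (1.78) and *Krt8* (1.77) rose, as did the repressors of E-cadherin *Zeb2* (1.52) and *Snai1* (1.07). The claudins *Cldn4* (-1.22) and *Cldn3* (-1.46) fell, with an overlap of samples for both. E-cadherin itself, *Cdh1*, had a log2 fold change of -0.50 (adjusted p = 0.0053).

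YAP is the effector of the Hippo pathway, and SRF drives genes of the actin cytoskeleton. Of 18 of their targets tested, 11 were higher, 61.1% against 5.46% of all genes (median log2 fold change 1.23). *Acta2*, smooth muscle actin, was below the filter, and no sample held more than 1 read of it at 48 h or more than 29 at 96 h. No member was lower by the 2-fold rule with limma or limma-voom, and 0 had a lower value at an unadjusted p under 0.05. SRF binds the CArG box, and TEAD factors, the partners of YAP, bind CATTCC. Of the 13 members with an entry among the RefSeq promoters (250 bases before to 50 after a start, GRCm38.p6), 5 held a CArG box on either strand, which 1.58% of the 10657 tested genes with an entry held. CATTCC or its reverse complement was found in 8 of the 13 and in 14.7% of all. Of those 8, *Ankrd1*, *Flna*, *Vcl* and *Tpm1* (1.04) were higher by the 2-fold rule, and the log2 fold changes of the other 4 ran from -0.01 to 0.84. The list was made of known targets of YAP and SRF, so a high share of their motifs may follow from how its members were chosen. A match describes these windows and is not evidence of binding. The CArG boxes, in capitals and on the strand of the gene, are shown as the motif with the lower share among all genes, in genes whose rise was already known.
Myl9: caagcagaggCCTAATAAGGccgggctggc
Cnn2: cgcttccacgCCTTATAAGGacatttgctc
Filip1l: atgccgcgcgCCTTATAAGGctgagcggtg
Vcl: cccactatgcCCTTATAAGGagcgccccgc
Srf: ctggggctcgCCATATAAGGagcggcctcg
Srf: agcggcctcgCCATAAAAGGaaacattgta
These windows lie at chr2:156775293-156775322 (*Myl9*), chr10:79988534-79988563 (*Cnn2*), chr16:57549170-57549199 (*Filip1l*), chr14:20929161-20929190 (*Vcl*) and, on the minus strand, chr17:46556225-46556254 and chr17:46556205-46556234 (*Srf*). All 5 genes were higher at 96 h by the 2-fold rule, as were 11 of the 18 members of the list they come from. *Cnn2*, *Vcl*, *Srf* and *Tpm1* are named for their motifs, after their values were seen. *Myl9* had 1.88, 3.77, 9.68 and 10.3 at 48 h and 153, 159.9, 149 and 174 at 96 h. *Filip1l*, a filamin-interacting protein, had 20.7, 35.8, 45.7 and 49.5 at 48 h and 347, 374, 360.3 and 386 at 96 h (log2 fold change 3.31, SE 0.32, adjusted p = 1.1e-09). *Cnn2*, a calponin, had 390.1, 435, 597 and 599.6 at 48 h and 2619.9, 2578, 3044 and 3126 at 96 h (log2 fold change 2.51). *Vcl*, the adhesion protein vinculin, had a log2 fold change of 1.42, and *Srf* itself 1.05, in each case with every 96 h sample above every 48 h sample. *Ankrd1*, a standard readout of YAP with the TEAD motif in its promoter, had at most 3 reads per sample at 48 h and 45.6, 44.2, 124 and 113 at 96 h, at least 23.0-fold above the level of 3 reads.

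**Figure D3:**
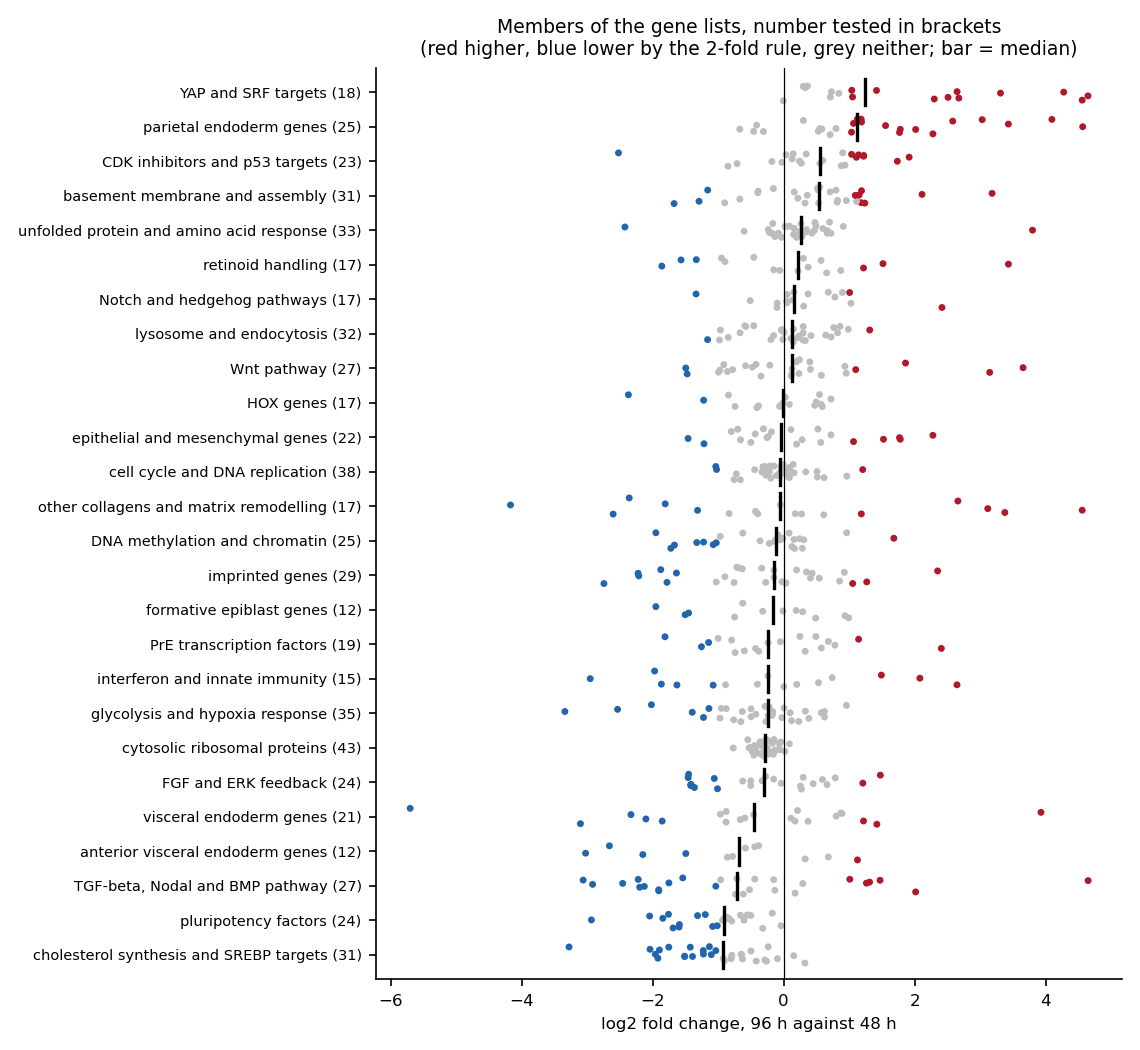
Each point is a gene of 1 of 26 lists, the x axis is its log2 fold change at 96 h against 48 h, and the black bar is the median of the list. Red and blue points passed the 2-fold rule upwards and downwards, and grey points did not. The lists of YAP and SRF targets (median 1.23) and parietal endoderm (1.13) are at the top, and pluripotency factors and cholesterol synthesis (both -0.92) are at the bottom.

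Of 19 genes tested that were listed as transcription factors of PrE, 2 were higher (10.5%, against 5.46% of all genes) and 3 lower (15.8%, against 9.88%). The median log2 fold change was -0.24. Some members of the list are not particular to PrE and stand among the trophoblast markers too. *Sox7* had 665, 697, 1146 and 1232 at 48 h and 1791, 1804, 2262 and 2142 at 96 h (log2 fold change 1.14, adjusted p = 0.0075), and the nuclear receptor *Nr2f2* had 17.9, 9.42, 12.3 and 11.4 at 48 h and 74.3, 73.6, 67.8 and 65.2 at 96 h (log2 fold change 2.41, adjusted p = 2.5e-06). *Hnf4a*, a regulator of visceral endoderm and liver genes, had 787, 748, 804 and 862 at 48 h and 318, 348, 363 and 311 at 96 h (log2 fold change -1.25, adjusted p = 0.008), and the forkhead factor *Foxa3* fell from 59.9 ± 5.18 to 16.9 ± 5.40 (log2 fold change -1.81). *Gata2* passed at the edge of the threshold (log2 fold change -1.15, adjusted p = 0.099), with -0.34 in replicates 1 and 2 and -1.95 in replicates 3 and 4, and its samples overlapped. It lost its call without either of replicates 1 and 2 at 48 h or either of replicates 3 and 4 at 96 h, and its log2 fold change without replicate 3 at 96 h was -0.50. Of 21 visceral endoderm genes, 5 were lower and 3 higher (median -0.46). The lower ones were *Cpn1*, the apolipoproteins *Apoc1*, *Apoe* and *Apom*, and *Gc*, the vitamin D-binding protein, which had 18 reads or fewer per sample and an overlap of samples. *Apoe* (chr7:19696109-19699188) had 6435, 6169, 4982 and 4644 at 48 h and 1286, 1278, 904 and 963 at 96 h (log2 fold change -2.33, SE 0.16, adjusted p = 6.4e-13), and no 96 h sample came near any 48 h sample. *Apom* fell from 499.7 ± 91.2 to 115 ± 13.4 (log2 fold change -2.10). The higher ones were clusterin, *Clu*, with 309, 286, 169.8 and 140.4 at 48 h and 2999.8, 2844, 3655 and 3689 at 96 h (log2 fold change 3.93, SE 0.20), the zinc transporter *Slc39a8* (1.42) and transthyretin, *Ttr*, which went from 22.5 ± 5.84 to 52.6 ± 6.16 (1.22). Among the list's genes below the filter, *Afp* reached 6 reads in a 96 h sample, *Apoa1* 3 and *Alb* and *Apob* 0. Of 12 genes of the anterior visceral endoderm, the signalling centre that patterns the epiblast, 4 were lower and 1 higher (median -0.68). *Hesx1* fell from 328 ± 21.2 to 74.2 ± 14.8 (log2 fold change -2.15), *Cxcr4* from 34.9 ± 7.68 to 3.75 ± 2.51 (-3.02), *Lhx1* from 16.8 ± 9.38 to 1.58 ± 0.498 (-2.66) and the Wnt antagonist *Sfrp5* from 14.6 ± 5.38 to 4.84 ± 2.76 (-1.49). The glypican *Gpc4* rose (1.13).

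Of 24 pluripotency factors tested, 11 were lower, against 9.88% of all genes, and the median log2 fold change was -0.92. No member was higher by the 2-fold rule with limma or limma-voom, and 0 had a higher value at an unadjusted p under 0.05. *Pou5f1* (chr17:35506018-35510772), the gene of OCT4, had 6413, 6419.7, 5971 and 5859.9 at 48 h and 2319, 2294, 1769 and 1824 at 96 h (log2 fold change -1.60, SE 0.10, adjusted p = 1.8e-13). Its mean at 96 h was 2051 ± 295, against 9104 ± 1585 at 0 h. *Nanog* had 308, 262, 165 and 144 at 48 h and 73.2, 81.0, 42.7 and 43.5 at 96 h (log2 fold change -1.84, adjusted p = 7.1e-08), and replicates 1 and 2 held more of it than replicates 3 and 4 at both times. *Esrrb* had 445, 426, 325 and 302 at 48 h and 66.8, 58.9, 37.7 and 34.0 at 96 h. *Dppa3* and *Prdm14*, germline and naive markers, fell from 13.6 ± 6.74 to 2.80 ± 1.92 and from 10.2 ± 5.82 to 2.40 ± 1.97. Of 12 formative epiblast genes, 3 were lower, among them *Dnmt3a* (2343, 2423, 2477 and 2553 at 48 h and 739.6, 677, 569.9 and 561 at 96 h, log2 fold change -1.95) and *Etv5* (-1.45). Of 25 genes of DNA methylation and chromatin, 7 were lower and 1 higher (median -0.12). Besides the methyltransferase *Dnmt3a*, the demethylase *Tet2* (-1.72) and the chromatin protein *Hmga1* (-1.67), which has processed copies in the genome, were among the lower. The linker histone gene *Hist1h1c* was the higher one (1.68), and the maintenance methyltransferase *Dnmt1* had a log2 fold change of 0.29.

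Genes of the TGF-β, Nodal and BMP pathways moved in both directions. Of 27 tested, 11 were lower and 6 higher (median -0.71). *Nog* rose most. *Id3*, an inhibitor of bHLH factors, had 636, 631, 391 and 397 at 48 h and 96.6, 86.2, 77.8 and 102 at 96 h (log2 fold change -2.46, SE 0.22, adjusted p = 2.5e-10), and *Smad6*, an inhibitory SMAD, had 77.3, 107, 100.3 and 70.2 at 48 h and 14.9, 10.5, 6.28 and 8.51 at 96 h (log2 fold change -3.06, SE 0.38, adjusted p = 8.5e-08). Of the other *Id* genes, named after their values were seen, *Id1* fell by 1.91 on the log2 scale, *Id4* rose by a log2 fold change of 1.31, and *Id2* had -0.73, under the 2-fold limit, and missed the threshold without replicate 1 or 2 at 48 h. *Bmp2*, the first gene of the list, went from 389.7 ± 40.2 to 439 ± 35.6 (log2 fold change 0.17, adjusted p = 0.68). *Gdf3*, a Nodal-like ligand, had 428, 420.2, 564 and 550.1 at 48 h and 70.0, 69.4, 55.2 and 60.5 at 96 h (log2 fold change -2.92, SE 0.09, adjusted p = 9.5e-21). Of 24 genes of FGF signalling and its ERK feedback, 8 were lower and 2 higher (median -0.30). The receptor *Fgfr2* (-1.01) and the ERK-induced factors *Egr1* (-1.46), *Etv5* (-1.45) and *Etv1* (-1.42) fell, while *Fgf3* rose from 476 ± 102 to 1083 ± 50.1 (1.21) and the immediate early gene *Ier3* rose (1.48). Of 27 Wnt pathway genes, 4 were higher and 2 lower (median 0.12). The higher were the ligands *Wnt4* (10.4, 11.3, 8.80 and 8.26 at 48 h and 116, 91.5, 186 and 157 at 96 h, log2 fold change 3.65), *Wnt11* (1.86) and *Wnt7b* (1.10) and the secreted antagonist *Frzb* (3.14), and the lower were *Axin2* (-1.47) and *Sfrp5*. Of 17 genes of retinoid handling, 3 were higher (*Stra6*, *Ttr* and the retinoic acid hydroxylase *Cyp26a1*, 1.52) and 3 lower (the hydroxylase *Cyp26b1*, -1.57, and the retinaldehyde dehydrogenases *Aldh1a3*, -1.86, and *Aldh1a1*, -1.33). Retinol-binding protein itself, *Rbp4*, had a log2 fold change of 0.87 (adjusted p = 0.18). Of 17 genes of the Notch and hedgehog pathways, *Hey2* (2.42) and *Gli3* (1.01) were higher and *Gli2* (-1.34) was lower, with an overlap of samples and no call with limma-voom. The ligand *Ihh* had a log2 fold change of 0.37 (adjusted p = 0.4).

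The SREBP transcription factors switch on cholesterol synthesis when sterols are low. Of 31 genes of this synthesis and other SREBP targets tested, 15 were lower, against 9.88% of all genes, with a median log2 fold change of -0.92. No member was higher by the 2-fold rule with limma or limma-voom. With no limit on size, 1 was higher at an adjusted p under 0.1 (limma). *Fdft1*, squalene synthase, had 1828, 1769, 1248 and 1151 at 48 h and 385, 336, 345 and 361 at 96 h (log2 fold change -2.04, SE 0.10, adjusted p = 1.9e-15). *Scd1*, the stearoyl-CoA desaturase, fell from 5342 ± 1374 to 1342 ± 111 (-1.96), and *Idi1*, isopentenyl-diphosphate isomerase, from 64.8 ± 23.4 to 15.6 ± 1.79 (-1.92). For *Fdft1* the log2 fold change was -2.32 in replicates 1 and 2 and -1.76 in replicates 3 and 4. Of the 21 members with a promoter entry, 1 held the sterol element TCACNCCAC on either strand, which 1.47% of all tested genes with an entry held. It was *Hmgcs1*, HMG-CoA synthase, named here for its motif, and the element is in capitals.
Hmgcs1: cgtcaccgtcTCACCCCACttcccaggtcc
This window lies at chr13:119690204-119690233, and *Hmgcs1* had 3058, 3124, 1584 and 1659.5 at 48 h and 775, 738, 592 and 572 at 96 h (log2 fold change -1.75). Of 35 genes of glycolysis and the hypoxia response, 6 were lower (median -0.24), among them *Aldoc*, the phosphofructokinase *Pfkp* (-2.02), the carbonic anhydrase *Car9* (-2.53) and the pyruvate dehydrogenase kinase *Pdk1* (-1.40), while the hexokinase *Hk2* had a log2 fold change of 0.38. Of 33 genes of the unfolded protein and amino acid responses, 1 was higher, *Atf3*, a stress-induced factor, with 33.9, 26.4, 52.8 and 38.2 at 48 h and 405, 436, 702 and 603 at 96 h (log2 fold change 3.80), and 1 lower, *Ddr2* (-2.42), a collagen receptor that stands in the list but is not a gene of these responses. The chaperone *Hspa5* had a log2 fold change of 0.20 (adjusted p = 0.16). Of 32 genes of lysosomes and endocytosis, *Ctsh*, a cathepsin, was higher (1.31) and *Glb1*, a galactosidase, lower (-1.16), while *Ctsl*, another cathepsin, had a log2 fold change of 0.33.

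**Figure D4:**
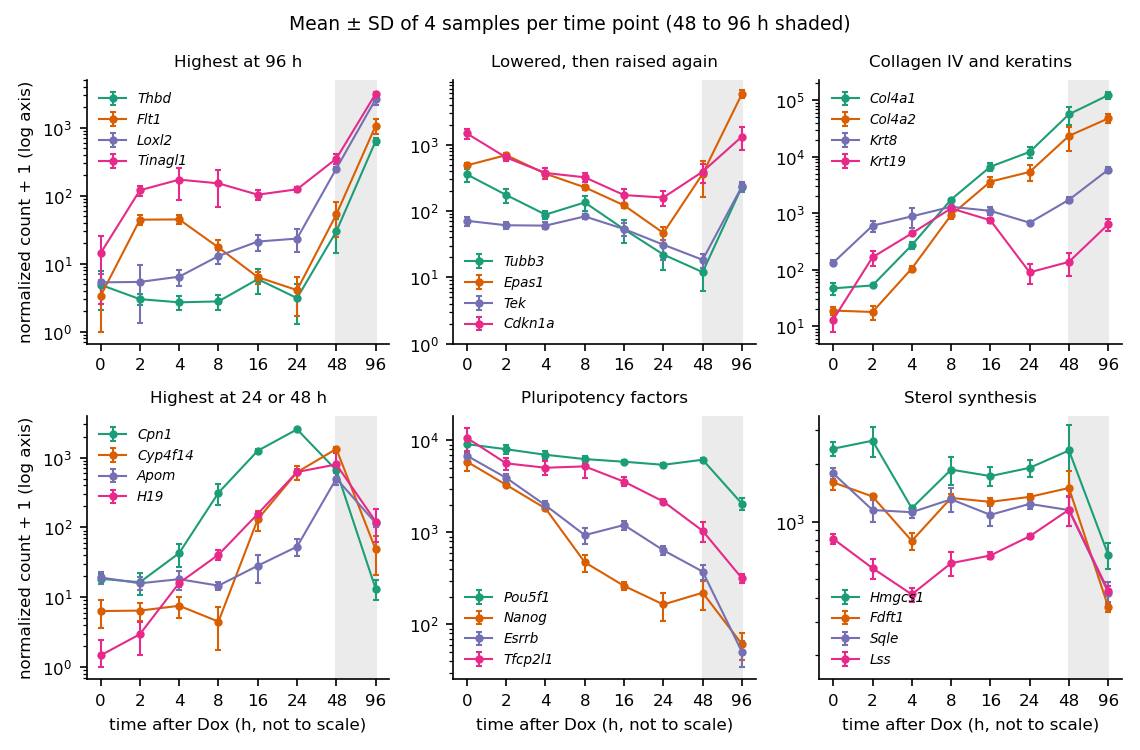
Mean normalized count plus 1 (± SD of 4 samples, log axes) at the 8 time points, for 24 genes in 6 panels, with the step from 48 h to 96 h shaded and the time axis not to scale. *Thbd* and *Flt1* climbed most in the shaded step, *Tubb3*, *Epas1*, *Tek* and *Cdkn1a* had gone down before they rose, and *Cpn1* had already passed its highest mean at 24 h.

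Of 38 genes of the cell cycle and DNA replication, *Ccne2*, a G1/S cyclin, was higher (1.21) and *Ccnb2*, a mitotic cyclin (-1.04), and *E2f2* (-1.02) were lower, with a median log2 fold change of -0.05. *Mki67* went from 5019.7 ± 239.6 to 4809 ± 102 (-0.06, adjusted p = 0.6). Of 23 CDK inhibitors and p53 targets, 7 were higher and 1 lower (median 0.55). *Cdkn1a*, the gene of p21, had 311, 262, 499 and 495 at 48 h and 901, 894, 1712 and 1808 at 96 h (log2 fold change 1.74, SE 0.23, adjusted p = 3.3e-07), and at both times replicates 3 and 4 were above replicates 1 and 2. The kinase *Plk2* (1.92) and the antiproliferative *Btg2* (1.22) rose, and the member that fell was the proapoptotic *Pmaip1*, from 964 ± 55.6 to 173 ± 52.9 (-2.52). Of 43 cytosolic ribosomal protein genes, 0 passed the 2-fold rule in either direction with limma or limma-voom. With no limit on size, 33 were lower and 0 higher at an adjusted p under 0.1 (limma), and the median was -0.28. Many of them have processed copies that share reads, and *Rplp0* had a log2 fold change of -0.53.

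Of 29 imprinted genes, 6 were lower and 3 higher (median -0.15). *H19* (chr7:142575529-142578143), a maternally expressed noncoding RNA, had 1110.0, 1093, 508 and 469.6 at 48 h and 184, 159, 61.5 and 77.5 at 96 h (log2 fold change -2.74, SE 0.34, adjusted p = 1.1e-07), and replicates 1 and 2 were above replicates 3 and 4 at both times. *Ascl2*, a trophoblast factor, fell from 83.3 ± 47.7 to 17.5 ± 11.1 (-2.21) and the amino acid transporter *Slc38a4* from 1737 ± 219.8 to 374 ± 65.7 (-2.22). The other 3 that fell, named after their values were seen, were *Igf2* (-1.88), *Phlda2* (-1.78) and *Slc22a18* (-1.64). *H19*, *Igf2*, *Ascl2*, *Phlda2* and *Slc22a18* lie on chromosome 7 between positions 142575529 and 143503150. So do the list's *Kcnq1ot1*, with a log2 fold change of -0.34 (adjusted p = 0.37), and *Cdkn1c*, with -0.03 (adjusted p = 0.97), both also named after their values were seen. *Cdkn1c* went opposite ways in the replicate sets, with 1.02 in replicates 1 and 2 and -1.08 in replicates 3 and 4. *Plagl1* (2.35), *Ndn* (1.27) and *Airn* (1.05, with an overlap of samples) were higher. *Airn* is transcribed antisense to *Igf2r*, and whether the counting used strand is not given in the sources used here. It missed the threshold when replicate 1 or 2 at 48 h or replicate 2 or 4 at 96 h was left out, with a lowest log2 fold change of 0.76 without replicate 2 at 48 h. Of 15 genes of the interferon response, 5 were lower, *Oas1a* (-2.95), *Bst2* (-1.97), *Psmb9* (-1.87), *Ddx58* (-1.63) and *H2-K1* (-1.08), and 3 were higher at low counts, *Oasl2*, *Cxcl10* and *Gbp2*, with means of 12.5 ± 2.48, 18.3 ± 5.89 and 6.49 ± 1.86 at 96 h and an overlap of samples for *Gbp2*. Of 17 HOX genes, *Hoxb13* and *Hoxc4* were lower, with means of 17.1 ± 3.10 and 30.7 ± 10.7 at 48 h, and the median was -0.02.

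Markers of other cell types were checked in the same way. Of 12 trophoblast markers 9 were tested, and *Ascl2*, *Esx1* (-2.47) and *Plac1* (-1.26) were lower, the last of which missed the threshold without replicate 3 or replicate 4 at 96 h. *Cdx2* had a log2 fold change of 0.11 (adjusted p = 0.88). The summed normalized count of the 9 was 1162 to 1579 at 48 h and 449 to 1141 at 96 h, and *Prl3d1* had 0 reads. Of 10 markers of blood and endothelium 6 were tested. *Tek*, the angiopoietin receptor, had 17.9, 11.3, 18.5 and 21.7 at 48 h and 195, 204, 262 and 277 at 96 h (log2 fold change 3.70, SE 0.22, adjusted p = 3.3e-14), and *Cdh5*, VE-cadherin, rose by 2.11 on the log2 scale (adjusted p = 0.0019). *Pecam1*, an adhesion protein of both endothelium and mES cells, fell by 1.27 on the log2 scale, and *Gata1* (-1.80) and *Cd34* (-1.07) fell at means of 4.75 and 6.15 at 48 h, with an overlap of samples. *Gata1* missed the threshold without replicate 1 at 48 h (log2 fold change -1.40). The sum of the 6 was 869 to 1197 at 48 h and 1008 to 1270 at 96 h, and *Ptprc*, the leukocyte marker, had at most 1 read per sample. Of 10 mesoderm markers 4 were tested, and the VEGF receptor *Kdr* was higher, from 93.5 ± 25.4 to 275 ± 63.5 (1.56). The sum of the 4 was 147 to 171 at 48 h and 269.5 to 404 at 96 h, and *T* had at most 1 read per sample. Of 9 neuroectoderm markers 3 were tested, and *Tubb3* and *Nes* (1.15) were higher, for sums of 153 to 229.9 at 48 h and 571 to 654 at 96 h, while *Sox1* had a log2 fold change of 0.48 (adjusted p = 0.46) and *Neurog2* and *Hes5* had 0 reads. Of 6 definitive endoderm markers 5 were tested, and *Cxcr4* and *Pyy* (-3.00) were lower, for sums of 696 to 1003 and 619 to 719. Of 10 fibroblast markers 2 were tested, with sums of 33.9 to 40.5 and 17.0 to 37.7, *Thy1* had a log2 fold change of -0.0016 (adjusted p = 1), and *Dcn*, *Lum* and *Col3a1* had 0 reads. *Postn*, periostin, had 1 read or fewer in each 48 h sample and up to 18 in a 96 h sample. The part of such cells in the values given was not tested.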

How the data were processed

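Total RNA of KH2 mES cells was sequenced as stranded, polyA-selected 50-base single reads, 4 samples at each of 8 time points. Reads were trimmed (cutadapt 2.7) by the authors, mapped with HISAT2 2.1.0 to GRCm38.p6 and assigned to genes with featureCounts (Subread 1.6.4) on GENCODE annotation. The deposited values are log2 values from the variance stabilizing transformation of DESeq2, made by the authors. The strand setting of the counting is not given in the sources used here.

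The transformation was inverted to normalized counts, of which 100% were whole reads within 0.01 once multiplied by the size factor. limma 3.58.1 in R 4.3.3 was fitted to log2(normalized count + 1) of all 32 samples with 8 group means and a trended prior, two-sided, with Benjamini-Hochberg adjustment over the 15227 genes in which 4 or more samples reached a normalized count of 10. A fold change on this scale understates the change of low genes. On simulated data for 96 h against 48 h (14961 genes), 198 of 200 changed genes were recovered and 0 unchanged genes were called. The changed genes had a mean of 100 or more at 48 h and changed by more than 4-fold. All genes had the same spread beyond counting error, and no replicate sets were simulated. How the fit does for genes with few reads, or with such sets present, was not tested.

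Named genes were the 12 largest rises and falls past the 4-fold rule that did not overlap and whose higher group averaged 100 or more. The 10 largest differences in mean count among genes past the 2-fold rule were added. Per list, the first gene and the 4 largest members past the 2-fold rule were named, or all called members where 5 or fewer were called. The genes, lists and tests were chosen with earlier results of these data known. Some genes that this rule names are not reported here. Gene positions are those of GENCODE on GRCm38. Alternatives covered the pseudocount, the filter, the scaling, the samples in the fit, the replicate number, the threshold, limma-voom, and leaving out samples. Read depth sets the precision, since 3 reads are the floor used for bounds, and bounds cover counting error only.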

Additional observations from a re-analysis of the deposited data

Results flagged for a closer look

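Among 352 groups of 4 samples (176 named genes at 48 h and at 96 h), 10 held a sample that stood apart from the other 3, where chance sets apart about 1 in 20 groups. The measure is the gap to the nearest sample over the range of the group, and the limit is Dixon's 95% critical value. At 48 h replicate 2 was highest for *Prdm14* (gap 0.864), *Sfrp5* (0.837) and *Psmb9* (0.834) and lowest for *Hist1h1c* (0.865). It has the fewest reads of the 8 samples. Replicate 1 at 48 h was highest for *Mmp2* (0.832) and for *Tagln2* (0.909), where it had 2743 against 2402 to 2433. Replicate 4 at 48 h was lowest for *Nog* (0.849), with 4.13 against 9.42 to 10.4. At 96 h replicate 1 was lowest for *Kcnq5* (0.91), with 192 against 226 to 229, and highest for *Hmga1* (0.872), and replicate 4 was highest for *Wnt7b* (0.904). All 10 genes had the same direction without the sample that stood apart.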

How the results depend on the processing

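The counts of called genes depended most on how low counts were treated. With only genes of a mean of at least 50 at 48 h and 96 h (10196 genes tested), 110 genes were higher and 89 lower by the 4-fold rule and 472 and 462 by the 2-fold rule, against 198 and 365 and 832 and 1504. A pseudocount of 5 left 143 lower, and the deposited values without inversion left 161. The first of these settings tests fewer genes, and the cause of the others was not tested. The other settings stayed within 1.5 times of these counts. Leaving out 1 sample gave 181 to 224 higher and 329 to 414 lower by the 4-fold rule, and 737 to 898 and 1413 to 1588 by the 2-fold rule. The replicate block gave 198 higher and 369 lower (841 and 1543 by the 2-fold rule). Same-numbered samples of 48 h and 96 h deviated together with correlations of 0.119, 0.0926, 0.147 and 0.103, not all above 0.1, so the numbers were not taken as pairs, and not every sample correlated best with its own number. Within the replicate sets all such correlations were positive (0.0926 to 0.148), and between them all were negative (-0.147 to -0.0879). Deviations were taken from the mean of each time point and cancel out within it. Positive values within sets therefore largely force negative ones between them. A block for the 2 replicate sets, chosen after seeing the data, gave 198 and 369, and the mean of each set in place of its samples gave 197 and 350. Of 165 named genes past the adjusted p of 0.1, 143 kept it in every alternative. With the mean of each set, 15 missed it, *Id2*, *Gata2*, *Sparc*, *Lama1*, *Cdh1*, *Cldn4*, *Fgfr2*, *Egr1*, *Wnt7b*, *Airn*, *Hoxb13*, *Dnmt1*, *Plac1*, *Gata1* and *Cd34*. With limma-voom *Prdm14*, *Lama3*, *Egr1*, *Gli2* and *Gata1* missed it, in replicates 1 and 2 alone *Gata2*, *Ctsh*, *Aldh1a1*, *Gbp2*, *Plac1* and *Cd34*, and in replicates 3 and 4 alone *Ttr*, *Airn* and *Id2*. *Gata2* and *Airn* missed it also with no filter and a pseudocount of 0.5, *Plac1* with the latter, *Gata1* with a pseudocount of 5, and *Gata2* with only the 8 samples. Leaving out 1 sample took it from *Gata2*, *Lama1*, *Airn*, *Plac1*, *Gata1* and *Id2*. Direction turned for 6 named genes, none of which passed the threshold with all samples. In replicates 3 and 4 alone the log2 fold change was -0.2091 for *Hspa5*, -0.0142 for *Ihh*, -0.0561 for *Sox1* and 0.0444 for *Thy1*. In replicates 1 and 2 alone *Cdkn1c* was at 1.0219, and with limma-voom at 0.0471. *Thy1* was at 0.0035 with TMM scaling and 0.0725 with a pseudocount of 5. With 1 sample left out, *Cdx2* ranged from -0.0584 to 0.2631, *Sox1* from -0.0345 to 0.8768, *Thy1* from -0.3891 to 0.5236 and *Cdkn1c* from -0.5267 to 0.5264. Genes with few reads are limited by depth, and the 48 h sample with the fewest reads had 4220117.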

Other observations

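Some genes that rose from 48 h to 96 h had been high at the start of the time course, and 22 of the 198 rises by the 4-fold rule had their highest mean at 0 h to 4 h. The following were picked after their values were seen. *Tubb3* started from a mean normalized count of 356 ± 81.2 (SD, n = 4) at 0 h, was down to 21.0 ± 9.10 by 24 h and returned to 232 ± 26.3 by 96 h. For *Cdkn1a* the same 3 means were 1481 ± 242, 159 ± 42.4 and 1329 ± 499.5.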
